A study of Mus musculus with 28 samples.

Results

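Axon guidance ligands and receptors are described here across 14 cell populations sorted from mouse back skin at postnatal day 5. The genes were taken by symbol, and no expression value entered the rule, which was set with earlier results of these data known. It covers semaphorins of classes 3 to 7, plexins, neuropilins, ephrins and Eph receptors, Slits and Robos, netrins, Unc5 receptors, Dcc and Neo1. The rule found 69 genes among the 23015 rows kept of the deposited expression table. They comprise 34 ligands (20 semaphorins, 8 ephrins, 3 Slits and 3 netrins) and 35 receptors (9 plexins, 2 neuropilins, 14 Eph receptors, 4 Robo receptors, 4 Unc5 receptors, and Dcc with Neo1).

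Guidance cues were named for steering growing axons, and the same molecules act between other neighbouring cells. Semaphorins signal through plexins, with neuropilins as co-receptors for most class 3 members, ephrins signal through Eph receptors on touching cells, Slits through Robo receptors, and netrins through Dcc, neogenin (Neo1) and Unc5 receptors. The hair follicle at this age holds a growing epithelium around a mesenchymal papilla, with melanocytes, vessels and sensory nerve endings close by.

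Each population was measured in 2 libraries of bulk RNA sequencing, and all mice had a mixed background of FVB/N, C57BI/6J and CD1. From mice carrying K14-H2BGFP and Lef1-RFP came the surface epidermis (Epi, GFP+ cells of the epidermal preparation), the outer root sheath (ORS, GFPHi cells of the dermal preparation), the hair matrix (Mx, GFPLo), and matrix progenitors labelled as transit amplifying cells (TAC, GFPLo and Lef1-RFP+). The same mice gave melanocytes (Mc, Lef1-RFP+ CD117+), dermal fibroblasts (DF, Lef1-RFP+ CD117- ITGA9-), dermal papilla (DP, Lef1-RFP+ ITGA9Hi) and a mixture of unlabelled cells (Neg). Papillae were also sorted as Lef1-RFP+ ITGA9Hi cells from mice with Sox2-GFP, into zigzag papilla (ZZ-DP, GFP-) and guard, awl and auchene papilla (G/AA-DP, GFP+). Mice with Crabp1-GFP gave guard papilla (G-DP, GFP-) and awl, auchene and zigzag papilla (AA/ZZ-DP, GFP+) by the same gate. K14-RFPHi ITGA6Hi cells of mice with Sox9-GFP were divided into bulge stem cell precursors (HF-SC, GFP+) and the remaining sheath (HF-ORS, GFP-). The K14 promoter is active in keratinocytes, and each sort holds whatever passes its gate. The labels do not say whether the 2 libraries of a population came from separate animals, so p-values measure the spread between these libraries, which may be technical.

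Values are FPKM, fragments per kilobase of transcript, which allow levels of different genes to be compared. Between 10951 and 12497 genes reached 1 FPKM in a library, and the libraries of a population correlated at 0.933 to 0.979 on the log2 scale. Marker lists peaked in the labelled sorts for surface epidermis, TAC, melanocytes, fibroblasts and papilla, and summed endothelial markers were highest in Neg. The sheath list was highest in HF-ORS through Krt15, while its member Lgr5 reached 93.9 and 102 FPKM in ORS, 18.8 and 33.1 in HF-SC, and 1.88 and 4.44 in HF-ORS. HF-ORS also held suprabasal epidermal markers, summing to 2874 and 1796 FPKM against 485 and 376 in HF-SC. The summed level of 8 neuronal markers stayed between 0 and 6.82 FPKM in every library.

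Most guidance genes were expressed in skin: 63 of the 69 reached 1 FPKM in 2 or more libraries, beside 15052 of the 23015 rows kept. For the counts that follow, shares over all genes were not computed. Of the 69 genes, 47 (24 ligands and 23 receptors) reached a mean of 10 FPKM in at least 1 population, 16 reached 50 FPKM and 8 reached 100 FPKM. At 1 FPKM or more in all 28 libraries stood 16 genes. Epha8 was listed at 0 in every library, and Slit1, Epha5, Epha10, Robo3 and Unc5a were also too low to be tested, which left 63 genes. The heat map of these 47 genes shows their highest levels spread over several populations. TAC had the highest mean for 11 of the 47, the 5 papilla sorts together for another 11, Mc, HF-ORS and HF-SC for 6, 6 and 5, Mx for 3, ORS and DF for 2 each, and Neg for 1. Summed over all 69 genes they made up 0.1235% to 0.3513% of a library's FPKM, lowest in an Epi library and highest in an AA/ZZ-DP library. The FPKM sum of a library itself ranged from 285980.6 in a G-DP library to 515224.0 in an HF-ORS library. By their summed FPKM the 69 genes ranged from 574.13 in an Epi library to 1147.2 in a TAC library.

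**Figure D1:**
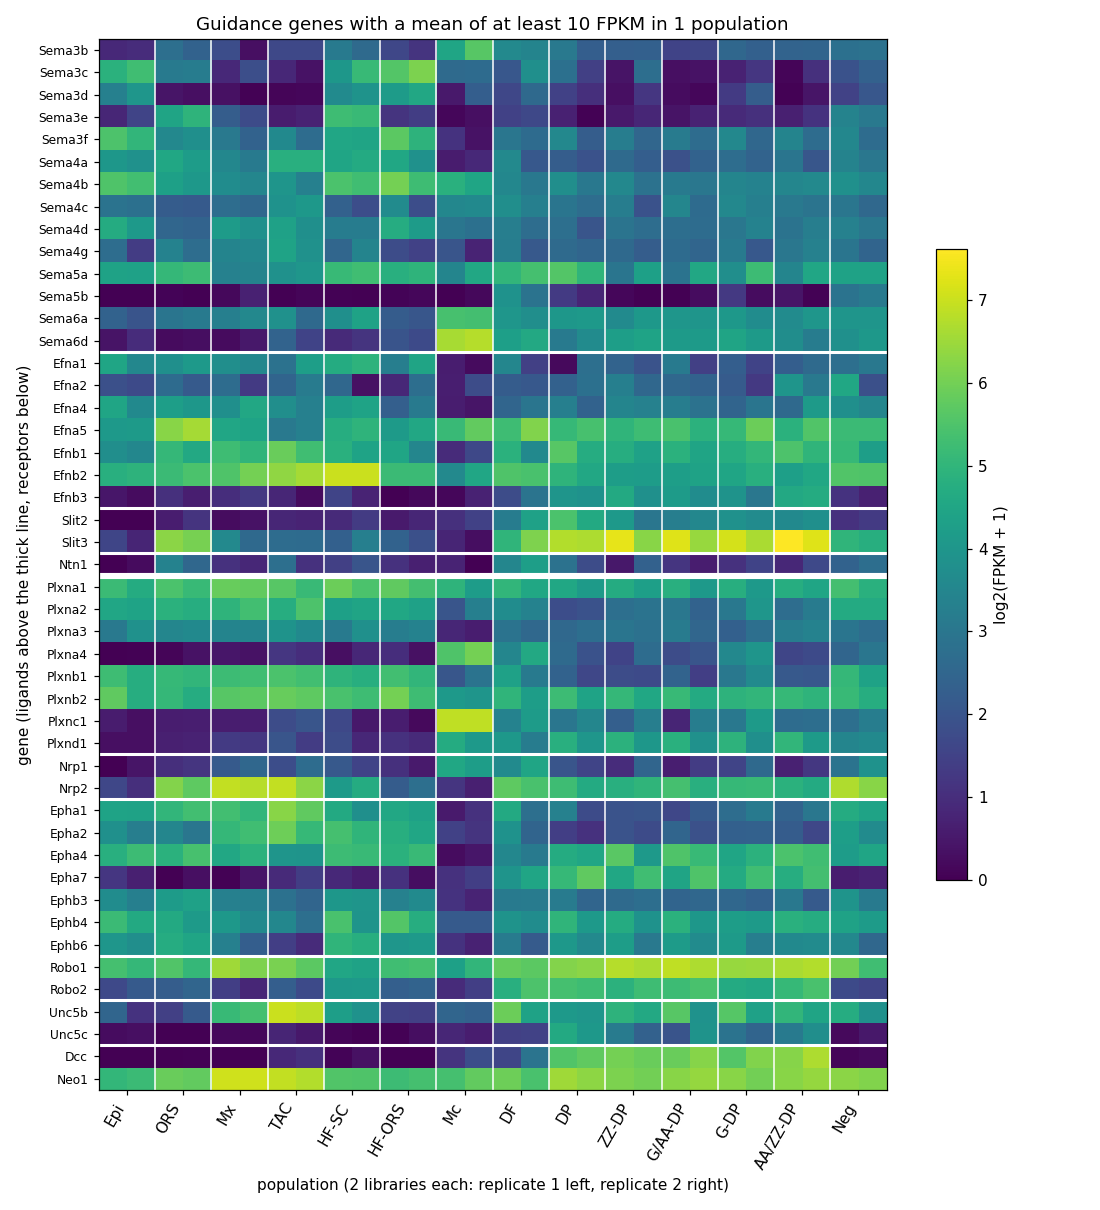
Levels of the 47 guidance genes whose mean reached 10 FPKM somewhere, as log2(FPKM + 1) in each of the 28 libraries (columns, grouped by population), with ligands and receptors in rows. Brighter colours are higher levels: Dcc is bright across the 5 papilla sorts and Plxnc1 and Sema6d in the 2 melanocyte libraries, while Neo1 and Plxnb2 are present in every column.

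Among the ligands, secreted class 3 semaphorins were divided between epithelial sorts. Sema3c, a ligand of neuropilin and plexin D1 complexes, measured 47.2 and 68.7 FPKM in HF-ORS, 28.4 and 38.3 in Epi and 15.4 and 34.1 in HF-SC, and at most 12.9 in any other library. Sema3d had the same 3 sorts on top, with 17.0 and 22.5 FPKM in HF-ORS, 11.5 and 14.2 in HF-SC and 8.92 and 14.9 in Epi. Sema3f, a neuropilin 2 ligand, reached 50.6 and 29.5 FPKM in HF-ORS and 43.8 and 31.5 in Epi, whose ranges overlap, with 21.9 and 20.6 in HF-SC. Sema3e, which can signal through plexin D1 without a neuropilin, had another order: 37.0 and 34.6 FPKM in HF-SC, then 20.8 and 29.7 in ORS, 9.69 and 7.47 in Neg, and at most 3.71 elsewhere. Sema3b and Sema3a were highest outside the epithelium, Sema3b at 21.1 and 48.7 FPKM in Mc and 11.1 and 9.93 in DF. The Sema3a mean was highest in DF, but from unequal libraries of 2.71 and 14.3 FPKM that spanned the 5.87 and 7.81 of HF-SC.

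The membrane-bound semaphorins had their highest means in different sorts, epithelial ones for Sema4a, Sema4b, Sema4d and Sema4g. Sema4b was highest in HF-ORS (64.9 and 37.5 FPKM), Epi (45.1 and 38.6) and HF-SC (43.0 and 37.8), 3 sorts whose libraries overlap, and Mc followed at 27.5 and 21.4. Sema4d, the ligand of plexin B1, ranged from 4.41 FPKM in an ORS library to 25.2 in an HF-ORS library within the epithelium, and from 3.04 to 9.40 over DF and the papilla sorts. Sema4a and Sema4g were highest in TAC, at 27.1 in both libraries and at 20.4 and 13.6 FPKM. Sema4c also had its highest mean in TAC, at 13.7 and 15.8 FPKM, and was at 2.48 or more in every library. Sema5a, which has thrombospondin repeats, was present in every library, from 6.47 FPKM in G/AA-DP to 46.5 in DP. Its relative Sema5b was found at 13.7 and 6.50 FPKM in DF and 6.52 and 7.70 in Neg and at 1.44 or less elsewhere, so the libraries of those 2 sorts overlap.

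Ephrins were broadly expressed. Efnb2 (chr8:8617235-8661242), the ephrin of EphB4 and other EphB receptors, was present in all 28 libraries, from 11.1 FPKM in Mc to 128 in HF-SC, with TAC next at 81.5 and 96.2. Efna5 peaked in ORS at 75.2 and 95.6 FPKM and was lowest in TAC at 7.54 and 8.95, with DF (37.4 and 71.1) and Mc (34.6 and 54.3) between. Efnb1 had its highest mean in TAC (58.1 and 37.8 FPKM), a range that overlaps those of DP (48.7 and 25.4) and Mx, and its lowest in Mc (0.896 and 2.16). Efnb3 was largely a papilla transcript at 7.16 to 24.8 FPKM over the 5 papilla sorts, against 2.44 and 6.59 in DF and 1.94 or less elsewhere. Efna1 had its highest mean in HF-SC, at 24.9 and 29.7 FPKM against 21.2 or less elsewhere. Efna4 did as well, at 18.0 and 20.5 FPKM, which overlap the libraries of Epi, ORS and Mx. The Efna2 mean was highest in Neg only through 1 library, at 22.2 against 2.61 FPKM.

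Slit3 (chr11:35121456-35708507) had the highest mean of the secreted ligands and was high in both papilla and outer root sheath. It measured 196 and 151 FPKM in AA/ZZ-DP, 105 and 102 in DP, 77.0 and 65.6 in ORS and 30.4 and 69.9 in DF, so that ORS and DF overlap, and at most 2.04 in Epi and 0.715 in Mc. Slit2 was found in mesenchyme, with 43.5 and 23.7 FPKM in DP, 6.96 to 16.2 in the other papilla sorts, 8.22 and 19.5 in DF and 1.75 or less in the other 8 populations. Netrins were low: Ntn1 reached 10.3 and 18.5 FPKM in DF and 9.31 and 4.89 in ORS, and Ntn4 and Ntn5 did not reach 10 FPKM anywhere.

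Among the receptors, Neo1, Robo1, Plxna1 and Plxnb2 were abundant nearly everywhere. Neogenin, a receptor for netrins and for repulsive guidance molecules, ranged from 31.8 FPKM in Epi to 132 and 133 in Mx. Robo1, a Slit receptor, ranged from 19.1 FPKM in Mc to 118 in G/AA-DP. Nrp2, a co-receptor of class 3 semaphorins, was at 119 and 111 FPKM in Mx, 120.04 and 77.3 in TAC, 104 and 76.3 in Neg, and 72.9 and 52.1 in ORS, against 2.08 and 1.05 in Epi and 1.24 and 0.581 in Mc. The TAC libraries overlap those of Mx and of Neg. Nrp1 had a different order, with 22.1 and 18.0 FPKM in Mc, 11.4 and 21.3 in DF and 6.52 and 13.9 in Neg, and at most 5.503 elsewhere.

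Plexins were found in every population, in different members. Plxnb2 (14.8 to 63.8 FPKM over the 28 libraries) and Plxna1 (16.1 to 58.6) were lowest in Mc and in a papilla library. Plxna3 had its highest mean in TAC (12.7 FPKM), followed by ORS (10.7), and its lowest in Mc (0.643). Plxna2 and Plxnb1 were at 19.0 to 44.2 and at 25.8 to 43.3 FPKM over the 12 epithelial libraries, against 2.47 to 15.1 and 1.64 to 11.4 over the papilla sorts. Plxnd1 had the opposite order, with 12.8 to 31.2 FPKM over the papilla sorts, 24.5 and 16.1 in Mc, 15.6 and 8.15 in DF, 10.1 and 11.1 in Neg and at most 3.002 in epithelium. Over the mean log2(FPKM + 1) of the 14 populations, Plxna2 was closest to Plxnb1 (Pearson's r = 0.954) and Plxna4 to Plxnc1 (0.964).

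Of the Eph receptors, Epha1 and Epha2 had their highest levels in the matrix progenitors. Epha1 reached 75.7 and 53.5 FPKM in TAC and Epha2 60.3 and 33.7, with Epha2 overlapping HF-SC (40.5 and 30.4) and Mx (33.0 and 37.8). Ephb4, Ephb6 and Ephb3 had their highest means in HF-ORS, HF-SC and ORS, at 46.5 and 26.0, 30.9 and 26.3, and 17.3 and 19.4 FPKM. For Ephb4 this range overlaps, among others, HF-SC (42.1 and 14.4), Epi (35.3 and 23.6) and DP (30.8 and 16.5). Epha4, which binds ephrins of both classes, was at 7.85 to 50.2 FPKM in every population except Mc (0.203 and 0.374). Epha7 was found in mesenchyme, with 21.0 to 53.1 FPKM over the 5 papilla sorts, 14.3 and 21.1 in DF and 1.69 or less elsewhere.

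The first comparison asked which guidance genes distinguish skin mesenchyme (DF and DP) from epithelium (Epi, ORS, Mx and TAC) within the K14-H2BGFP line. Of the 63 genes tested, 33 passed the test (limma, adjusted p under 0.05 and at least 1 on the log2(FPKM + 1) scale), 23 higher and 10 lower in mesenchyme, and 30 did not. Over all 15052 genes tested, 26% were called, 14.5% higher and 11.5% lower. The test sets the mean of the populations on each side against the spread between libraries of a population. Differences among the populations of a side are not part of that spread. The median log2 change was 0.38 over the 63 genes and -0.05 over all genes. In bulk samples a lower level can mean fewer cells of a type or less RNA per cell, which cannot be told apart.

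The genes higher in mesenchyme included several ligands and their receptors. Slit2 was 8.22 to 43.5 FPKM in the 4 mesenchymal libraries and 0 to 1.202 in the 8 epithelial ones, a log2 change of 3.92 ± 0.26 (SE, adjusted p = 1.987e-10). Robo2, a Slit receptor, had 27.1 and 44.4 FPKM in DF and 40.04 and 37.2 in DP against 0.779 to 4.64 in epithelium (3.38 ± 0.19, adjusted p = 2.091e-11). Slit3 was higher as well (2.85 ± 0.27, adjusted p = 5.523e-08), although its mean was 71.3 FPKM in ORS against 50.1 in DF. Epha7 had the largest change, 4.20 ± 0.26 (adjusted p = 9.983e-11), from 1.62 FPKM or less in epithelium. Among the semaphorin genes, Sema6d changed by 3.10 ± 0.21 (adjusted p = 2.413e-10), and among plexins Plxnd1, the Sema3e receptor, by 3.03 ± 0.29 (adjusted p = 5.689e-08), Plxna4 by 2.72 ± 0.27 (adjusted p = 6.339e-08) and Plxnc1, the Sema7a receptor, by 2.62 ± 0.36 (adjusted p = 5.483e-06). Dcc (3.71 ± 0.23, adjusted p = 9.097e-11), Unc5c (2.64 ± 0.28, adjusted p = 1.923e-07) and Efnb3 (2.43 ± 0.27, adjusted p = 3.835e-07) rose with them. Called higher too were Epha3, Ephb2, Nrp1, Ntn1, Sema3a, Sema3b, Sema3g, Sema4f, Sema5a, Sema5b, Sema6a and Unc5d.

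The genes lower in mesenchyme were 4 receptors and 6 ligands. Plxnb1, the Sema4d receptor, stood at 25.8 to 43.3 FPKM in the 8 epithelial libraries against 19.7 and 7.85 in DF and 4.23 and 2.05 in DP (log2 change -2.29 ± 0.25, adjusted p = 3.329e-07), and the groups do not overlap, as for 19.1% of all genes. The receptors Plxna2, Epha1 and Epha2 and the ligands Efna1, Efna4, Sema4a, Sema4d, Sema3e and Ntn4 were called lower too. The DF libraries also held epithelial markers, with summed keratinocyte markers of 499 and 139 FPKM and matrix markers of 511 and 120, against 40.4 and 42.9, and 45.3 and 64.6, in DP, and their part in these calls was not tested. With DP alone as the mesenchyme, an alternative added after seeing the data, 30 genes were called (19 higher and 11 lower) against 30.2% of all genes. It kept 28 of the 33 calls and lost Nrp1, Ntn1, Sema3a, Sema4f and Sema5b. With a pseudocount of 5 in place of 1, 17 genes were called. Leaving out a single library ended the calls of Efna4 and Sema3e (DP replicate 2), Sema3a and Sema4f (DF replicate 2), Sema5a (DF replicate 2 or DP replicate 1), Sema4d (5 of 12 libraries) and Sema6a (6 of 12).

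**Figure D2:**
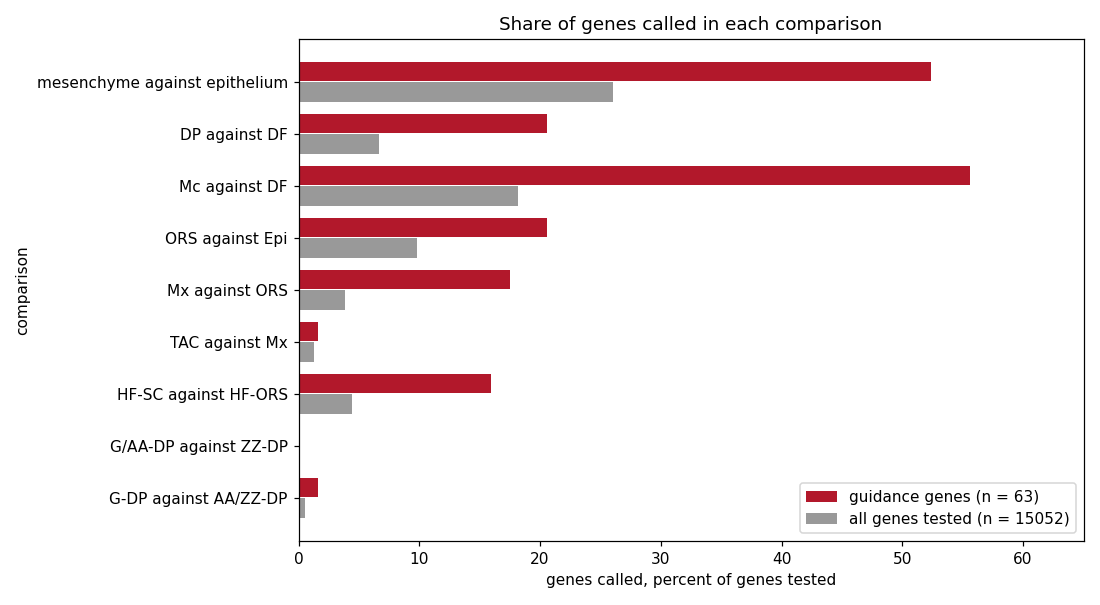
Percent of genes called in each of the 9 comparisons, for the guidance genes tested (n = 63) and for all genes tested (n = 15052), on a linear axis from 0. The 2 shares lie farthest apart for Mc against DF, where 35 of the 63 were called against 18.2% of all genes.

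Within the mesenchyme, the 2 largest changes of guidance genes from fibroblasts to papilla were those of the netrin receptors Dcc and Unc5c. The other netrin receptors tested were not called: Neo1 was at 92.3 and 78.6 FPKM in DP against 60.8 and 41.9 in DF, Unc5b at 16.0 and 14.99 against 58.6 and 20.04, and Unc5d was low in both. Dcc, the attractive netrin receptor, measured 46.1 and 52.8 FPKM in DP against 2.03 and 6.57 in DF. In the sorts by hair type it measured 63.9 and 57.9 in ZZ-DP, 57.4 and 74.7 in G/AA-DP, 46.9 and 71.7 in G-DP and 73.6 and 101 in AA/ZZ-DP. No library outside the papilla exceeded 6.57 FPKM, so all 10 papilla libraries lie above all others, as they do for Unc5c and Efnb3. The share of all genes with such a separation was not computed. The change from DF to DP was 3.39 ± 0.38 on the log2 scale (adjusted p = 1.325e-05). Unc5c, a repulsive netrin receptor, had 23.6 and 15.6 FPKM in DP against 1.73 and 1.86 in DF (2.85 ± 0.46, adjusted p = 0.0004186), and 2.92 to 14.2 over the other papilla sorts. The highest epithelial value of either gene was 1.07 FPKM, Dcc in a TAC library. Ntn1 itself was 6.28 and 2.42 FPKM in DP and 10.3 and 18.5 in DF and was not called between them (-1.57 ± 0.60, adjusted p = 0.1348).

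The Unc5c promoter is shown as RefSeq gives it on GRCm38.p6 (chr3:141465314-141465613, plus strand, 250 bases before the annotated start and 50 after it), because this gene was called in DP against each of the other 7 populations of the line. It was searched on both strands for 3 motifs, CACGTG and CATGTG (E-boxes of the kind that MITF binds) and CTTTGA (the core that Tcf and Lef factors bind). The 3 motifs do not overlap each other, and matches are written in capitals in the sequences here. The gene itself spans chr3:141465564-141834924. None of the motifs is in this window, which is rich in G and C (68.3%), and the annotated start was not shown to be the start used in these cells.
Unc5c: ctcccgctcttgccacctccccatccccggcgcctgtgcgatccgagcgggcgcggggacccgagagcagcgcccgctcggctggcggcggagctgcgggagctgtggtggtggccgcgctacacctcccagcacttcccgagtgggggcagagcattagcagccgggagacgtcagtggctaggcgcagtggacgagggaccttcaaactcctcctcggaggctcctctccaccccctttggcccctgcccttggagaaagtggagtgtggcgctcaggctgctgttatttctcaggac

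Of the 63 genes tested between DP and DF, 13 were called, 4 higher and 9 lower in DP, beside 6.69% of all genes (2.44% higher and 4.25% lower). Efnb3 (1.58 ± 0.44, adjusted p = 0.03306) and Epha4 (1.25 ± 0.36, adjusted p = 0.03625) were the others higher in DP. Sema5b was lower at 1.44 and 0.721 FPKM against 13.7 and 6.50 (-2.36 ± 0.34, adjusted p = 0.0001876). Nrp1 fell from 11.4 and 21.3 FPKM in DF to 2.99 and 1.97 in DP (-2.28 ± 0.52, adjusted p = 0.008912). Lower in DP were also Epha2 (-1.92 ± 0.42, adjusted p = 0.006005), Plxna4 (-1.78 ± 0.43, adjusted p = 0.01348), Plxnb1 (-1.76 ± 0.41, adjusted p = 0.01072), Plxna2 (-1.69 ± 0.38, adjusted p = 0.007759), Plxnb3, Sema3e and Sema4f. Of these, the epithelial receptors Epha2 and Plxnb1 were at 13.7 and 4.49, and 19.7 and 7.85 FPKM in DF, higher in the library with more keratinocyte and matrix markers. Summed pericyte markers were 614 and 604 FPKM in DF against 26.8 and 39.4 in DP, and melanocyte markers 1041 and 1063 against 12.96 and 20.8. The part of those cells in the genes lower in DP was not tested.

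Slit2, Slit3, Robo2 and Epha7, high in the papilla, were not called between DP and DF. Slit2 had 43.5 and 23.7 FPKM in DP against 8.22 and 19.5 in DF, without overlap (1.27 ± 0.42, adjusted p = 0.07752). Between the 2 libraries of DP and the 2 of DF, 43.1% of all genes tested did not overlap. Robo2 had 40.04 and 37.2 FPKM in DP within the 27.1 and 44.4 of DF (0.15 ± 0.31, adjusted p = 0.8866). The count of 13 fell to 8 without DF replicate 1, to 6 without DP replicate 2, and to 8 with a pseudocount of 0.1. The calls of Dcc, Unc5c and Sema5b held whichever library was left out. Plxnb3, which reached 1 FPKM only in the 2 DF libraries and passed the filter through them, was called without either DP library and was not tested without either DF library. The other 9 were each lost without at least 1 library, and a group left with 1 library gives a weaker test for every gene. Epha4 was lost without any of the 4, Efnb3 without any but DF replicate 2, Sema3e without any but DP replicate 1 and Sema4f without any but DF replicate 1. Epha2 and Plxnb1 were lost without DF replicate 1 or DP replicate 2, Nrp1 and Plxna4 without DF replicate 2 or DP replicate 2, and Plxna2 without DF replicate 1 or DP replicate 1.

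**Figure D3:**
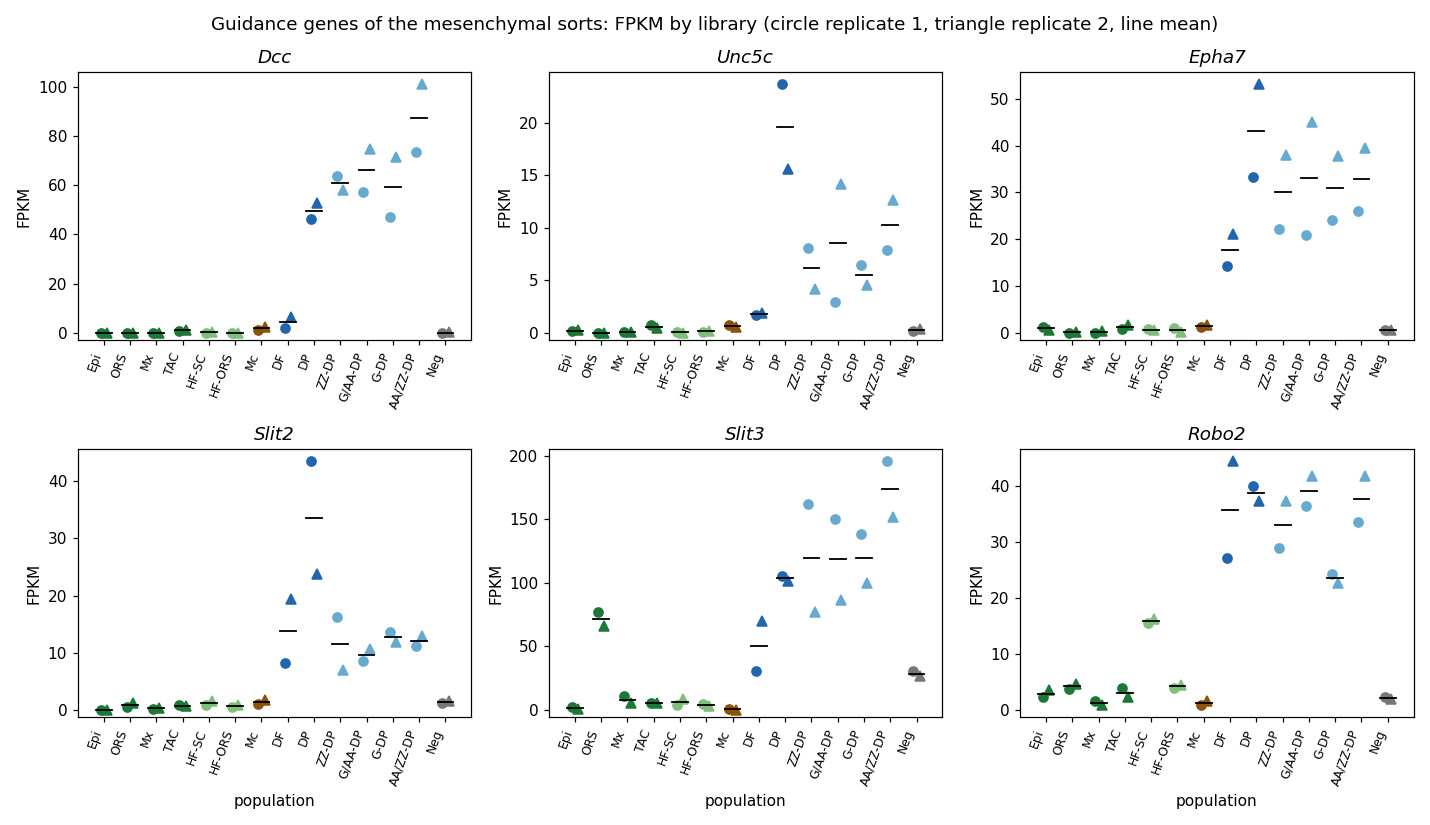
FPKM of Dcc, Unc5c, Epha7, Slit2, Slit3 and Robo2 in the 2 libraries of each population (circle, replicate 1; triangle, replicate 2; line, mean). Dcc and Unc5c each lie higher in every library of the 5 papilla sorts than in any other library, whereas Slit3 is also at 77.0 and 65.6 in ORS. The share of all genes with such a separation was not computed. Robo2 is as high in DF as in DP.

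Few guidance genes were called between papilla sorts of different hair types. Between G/AA-DP and ZZ-DP, no gene of the 63 was called with limma, and none had an unadjusted p under 0.05, beside 0.00664% of all genes called and 211 genes at that unadjusted p. Between G-DP and AA/ZZ-DP, 1 of 63 was called, beside 0.505% of all genes (0.412% higher and 0.093% lower), and 12 (19%) had an unadjusted p under 0.05, beside 8.38% of all genes. That gene was Plxna4, at 10.8 and 14.6 FPKM in G-DP against 1.99 and 2.27 in AA/ZZ-DP (2.12 ± 0.43, adjusted p = 0.0266). Plxna4 was highest of all populations in Mc (44.7 and 64.8 FPKM), and the melanocyte markers summed to 954 and 758 FPKM in G-DP against 45.1 and 54.8 in AA/ZZ-DP, whose part in the call was not tested. The call was lost without G-DP replicate 2, without either AA/ZZ-DP library, with a pseudocount of 0.1 and in a fit of the Crabp1-GFP line alone. As a description over the mean log2(FPKM + 1) of the 14 populations, Dcc had its closest likeness to Epha7 (Pearson's r = 0.96) and Unc5c (0.959), and Slit2 to Epha7 (0.96). All of them are raised in the papilla sorts, which are 5 of the 14 points. The likeness of Slit2 and Epha7 also takes in DF, with means of 13.8 and 17.7 FPKM.

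Melanocytes had a guidance repertoire unlike that of the fibroblasts sorted beside them by the same Lef1-RFP gate. Plxnc1, a receptor for Sema7a, measured 118 and 118 FPKM in Mc against 9.30 and 17.1 in DF, 0.745 to 16.6 over the papilla sorts and at most 3.06 in epithelium (log2 change from DF 3.12 ± 0.58, adjusted p = 0.0004999). Sema6d, a transmembrane semaphorin, measured 97.7 and 108 FPKM in Mc against 18.7 and 23.2 in DF and 23.2 or less in every other library. Both genes were called higher in Mc than in each of the other 7 populations of the line, Plxnc1 by at least 3.12 and Sema6d by at least 2.25 on the log2 scale (largest adjusted p = 0.0004999 and 5.302e-05). Another 4 guidance genes met that rule in Mc: Plxna4 (at least 1.72, largest adjusted p = 0.006527), Sema6a, Sema3b and the netrin receptor Unc5d, which is low at 7.20 and 6.70 FPKM. Sema6a, a ligand of class A plexins, measured 41.2 and 39.7 FPKM in Mc and at most 19.8 in any other library. Sema4b was the other gene higher in Mc than in DF.

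The promoters of both leading melanocyte genes are shown for their difference in sequence (RefSeq, GRCm38.p6, same window and motifs). The Plxnc1 window (chr10:94944796-94945095, minus strand) covers the start of a gene that spans chr10:94790866-94945015 and holds none of the 3 motifs. The Sema6d window (chr2:124089719-124090018, plus strand, the first of 2 listed starts) holds 1 CACGTG and 1 CTTTGA, the latter on the opposite strand, and its gene spans chr2:124089943-124667789. For both genes the start on which the window is placed differs from the outer end of the gene span given. Of 27025 RefSeq promoters of the same length, 7.24% hold CACGTG, 14.1% CATGTG and 16.2% CTTTGA, against 4, 5 and 5 of the 59 guidance genes with a listed promoter.
Plxnc1: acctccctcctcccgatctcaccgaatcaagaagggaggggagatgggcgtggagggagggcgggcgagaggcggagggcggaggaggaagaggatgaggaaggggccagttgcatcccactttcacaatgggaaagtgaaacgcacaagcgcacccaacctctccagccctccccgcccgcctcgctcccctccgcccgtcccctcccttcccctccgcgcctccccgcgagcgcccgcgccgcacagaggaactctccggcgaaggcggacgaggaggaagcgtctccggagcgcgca
Sema6d: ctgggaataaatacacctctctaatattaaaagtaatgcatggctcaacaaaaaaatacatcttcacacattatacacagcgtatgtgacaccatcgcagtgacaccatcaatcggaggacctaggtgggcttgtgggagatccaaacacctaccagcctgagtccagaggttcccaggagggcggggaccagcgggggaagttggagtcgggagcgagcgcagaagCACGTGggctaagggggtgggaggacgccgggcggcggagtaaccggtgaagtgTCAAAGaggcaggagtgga

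Of the 63 genes tested between Mc and DF, 35 were called, 7 higher and 28 lower in Mc, beside 18.2% of all genes (6.67% higher and 11.5% lower). Both receptors and ligands were among the lower ones. Slit3 measured 0.715 and 0.208 FPKM in Mc against 30.4 and 69.9 in DF (-5.03 ± 0.45, adjusted p = 8.483e-08). Nrp2 measured 1.24 and 0.581 FPKM against 52.5 and 42.6 (-4.68 ± 0.32, adjusted p = 2.365e-09), while Nrp1, the other neuropilin, was at 22.1 and 18.0 against 11.4 and 21.3 and was not called. Robo2 was 0.927 and 1.64 FPKM in Mc (-3.99 ± 0.31, adjusted p = 1.305e-08) and Epha4 0.203 and 0.374 (-2.98 ± 0.36, adjusted p = 3.567e-06). Epha4 and Epha7 (-2.94 ± 0.43, adjusted p = 4.058e-05), Epha1 (-2.90 ± 0.50, adjusted p = 0.000252), Ephb3, Ephb4, Ephb6, Epha2 and Ephb1 were all Eph receptors called lower. Ntn1 (-3.52 ± 0.60, adjusted p = 0.0001875), Sema5b (-3.31 ± 0.34, adjusted p = 5.738e-07), Efnb1 (-2.95 ± 0.44, adjusted p = 4.598e-05), Unc5b (-2.72 ± 0.56, adjusted p = 0.001174) and Slit2 (-2.53 ± 0.42, adjusted p = 0.0001576) were lower too. Efna5, Plxna1 and Neo1 were at 34.6 and 54.3, 29.9 and 17.5, and 40.03 and 54.7 FPKM in Mc and were not called.

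DF is the control in this comparison and in the one with DP, so their values share libraries. DF also carried melanocyte markers at 1041 and 1063 FPKM against 12486 and 10740 in Mc. Its keratinocyte, matrix and pericyte markers summed to 499 and 139, 511 and 120, and 614 and 604 FPKM. In Mc the same lists summed to 152 and 102, 7.45 and 15.3, and 8.03 and 4.64 FPKM. The part of such cells in the calls was not tested. With DP in place of DF, added after seeing the data, 34 genes were called (8 higher and 26 lower) beside 23.7% of all, and 28 of the 35 calls were kept. The 7 lost were Sema5b, Efnb2, Ntn4, Sema3e, Plxnb3, Epha2 and Plxnb1, and the estimates of the last 2 turned in sign without a call (0.05, adjusted p = 0.9808, and 0.47, adjusted p = 0.4635). A pseudocount of 5 left 22 calls. Of the genes named with values, Plxna4 and Sema3b lost their call without DF replicate 1 or Mc replicate 2, and Sema3b also without DF replicate 2. Sema4b was lost without DF replicate 2 or Mc replicate 1, Epha2 without DF replicate 1, Ephb6 without DF replicate 1 or Mc replicate 2, Ephb4 without any but DF replicate 2, and Ephb1 without any of the 4.

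**Figure D4:**
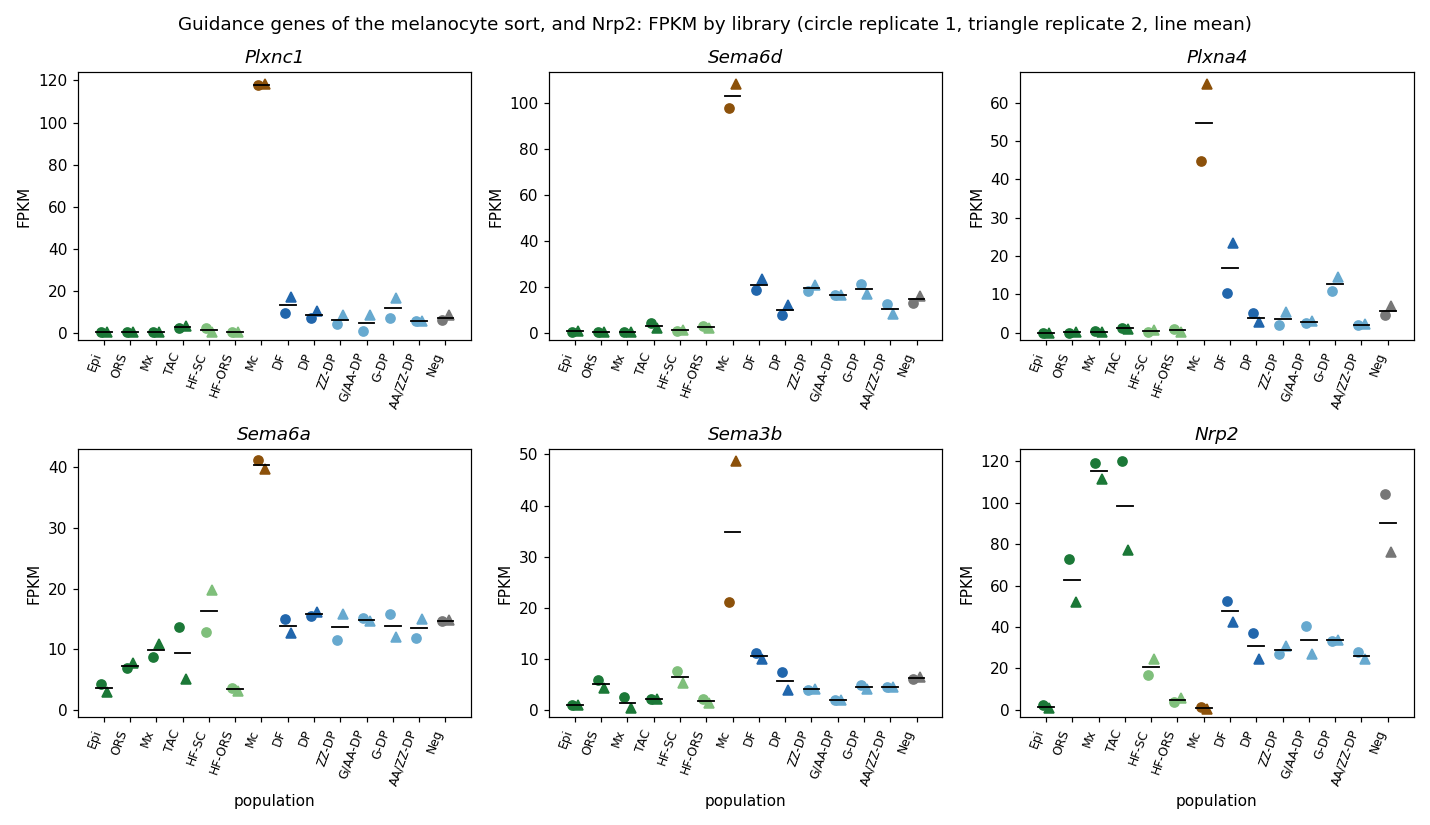
FPKM of Plxnc1, Sema6d, Plxna4, Sema6a, Sema3b and Nrp2 in the 2 libraries of each population (circle, replicate 1; triangle, replicate 2; line, mean). The first 5 are highest in Mc, where Plxnc1 is at 118 in both libraries, and Nrp2 is near its lowest there at 1.24 and 0.581.

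Within the epithelium, the 3 largest called changes from surface epidermis to outer root sheath were those of Slit3, neuropilin 2 and Sema3e. Slit3 measured 77.0 and 65.6 FPKM in ORS against 2.04 and 0.725 in Epi (log2 change 4.98 ± 0.45, adjusted p = 1.501e-07). Nrp2 measured 72.9 and 52.1 FPKM against 2.08 and 1.05 (4.64 ± 0.32, adjusted p = 4.079e-09). Sema3e measured 20.8 and 29.7 FPKM against 0.762 and 1.93 (3.51 ± 0.35, adjusted p = 5.599e-07). For these 3 genes the lower ORS library lies above the higher Epi library, as groups of 2 did not overlap in this comparison for 51.7% of all genes. Sema3e was also the only guidance gene called higher in ORS than in each of the other 7 populations of its line (at least 1.44, largest adjusted p = 0.01748), a call lost without ORS replicate 2, without Neg replicate 2 or with a pseudocount of 0.1.

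The Sema3e promoter is shown because this gene separates sheath populations in each sheath comparison here (RefSeq, GRCm38.p6, chr5:14025026-14025325, plus strand). The gene spans chr5:14025276-14256689. Its promoter window holds 1 match of each of the 3 motifs, CTTTGA on the opposite strand and CATGTG read as CACATG.
Sema3e: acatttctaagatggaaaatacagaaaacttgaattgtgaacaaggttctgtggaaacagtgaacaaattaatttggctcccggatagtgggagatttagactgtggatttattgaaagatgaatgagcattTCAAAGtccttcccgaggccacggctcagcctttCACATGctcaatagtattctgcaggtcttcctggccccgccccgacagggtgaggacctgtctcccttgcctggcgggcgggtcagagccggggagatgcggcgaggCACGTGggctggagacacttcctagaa

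Of the 63 genes, 13 were called between ORS and Epi, 9 higher and 4 lower in ORS, beside 9.83% of all genes (5.35% higher and 4.48% lower). The others higher in ORS were Ntn1 (2.85 ± 0.60, adjusted p = 0.002395), Ephb1 (2.68 ± 0.38, adjusted p = 4.463e-05), Efna5 (2.30 ± 0.33, adjusted p = 4.995e-05), Sema3b (1.67 ± 0.43, adjusted p = 0.01418), Ntn4 (1.37 ± 0.37, adjusted p = 0.01974) and Sema7a. All 4 genes lower in ORS were semaphorins, while 3 others (Sema3e, Sema3b and Sema7a) were among those higher: Sema3d (-3.29 ± 0.50, adjusted p = 9.836e-05), Sema4d (-1.91 ± 0.33, adjusted p = 0.0004014), Sema3f (-1.57 ± 0.49, adjusted p = 0.04463) and Sema4b (-1.21 ± 0.32, adjusted p = 0.01644) were higher in Epi. Sema3c, at 28.4 and 38.3 FPKM in Epi against 7.80 and 8.17 in ORS, was not called. Ntn4, Sema3f and Sema4b lost their call whichever of the 4 libraries was left out, Sema3b without any but ORS replicate 2, Ntn1 without ORS replicate 1 (8 calls left) and Sema7a without ORS replicate 2.

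From sheath to matrix the pattern turned. Unc5b, a repulsive netrin receptor that also acts in vessels, measured 34.4 and 40.8 FPKM in Mx against 1.74 and 3.46 in ORS (3.46 ± 0.56, adjusted p = 0.0007422). Slit3 fell to 11.1 and 5.08 FPKM (-3.07 ± 0.45, adjusted p = 0.000347), Sema3e to 3.71 and 2.33 (-2.71 ± 0.35, adjusted p = 0.0001334) and Efna5 to 21.9 and 20.3 (-1.96 ± 0.33, adjusted p = 0.001076). Nrp2 stayed high, at 119 and 111 FPKM against 72.9 and 52.1 without overlap (as for 45.8% of all genes), and was not called (0.89 ± 0.32, adjusted p = 0.1611). Neo1 measured 132 and 133 FPKM in Mx against 58.1 and 54.5 in ORS (1.22 ± 0.21, adjusted p = 0.001318).

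In all, 11 of the 63 genes were called between Mx and ORS, 5 higher and 6 lower in Mx, beside 3.83% of all genes (1.2% higher and 2.64% lower). Epha2 (1.93 ± 0.42, adjusted p = 0.008288), Sema4d (1.52 ± 0.33, adjusted p = 0.008769) and Robo1 (1.02 ± 0.26, adjusted p = 0.02852) were also higher, and Ephb1 (-2.03 ± 0.38, adjusted p = 0.002711), Ephb6 (-1.79 ± 0.45, adjusted p = 0.02545) and Robo2 lower. The count fell to 6 without Mx replicate 2 or ORS replicate 2 and to 7 without ORS replicate 1. Unc5b, Slit3, Sema3e, Efna5 and Neo1 were called whichever library was left out, and the other 6 were each lost without at least 1 library. Ephb6 and Robo2 were lost without any but Mx replicate 1, Sema4d without any but Mx replicate 2 and Robo1 without any but ORS replicate 1. Epha2 was lost without Mx replicate 2 or ORS replicate 2, and Ephb1 without Mx replicate 2 or ORS replicate 1.

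Between TAC and Mx, 2 overlapping sorts of the matrix, 1 of the 63 genes was called, higher in TAC, beside 1.27% of all genes (1.04% higher and 0.233% lower). It was Sema6d, low in both at 4.42 and 1.87 FPKM in TAC against 0.176 and 0.403 in Mx, which was called at 1.62 on the log2 scale with an adjusted p of 0.01859 and was lost without TAC replicate 1 or either Mx library. Its level in Mc was 97.7 and 108 FPKM, and melanocyte markers summed to 208 and 141 FPKM in TAC, whose part was not tested. Unc5b had the largest difference in level, 128 and 115 FPKM in TAC against 34.4 and 40.8 in Mx, without overlap, but was not called (1.67 ± 0.56, adjusted p = 0.2134). Sema4a at 27.1 and 27.1 against 10.6 and 7.75 FPKM (1.48 ± 0.41, adjusted p = 0.09793) and Efna5 at 7.54 and 8.95 against 21.9 and 20.3 (-1.26 ± 0.33, adjusted p = 0.07014) did not overlap either and were not called. Between these sorts 40.9% of all genes did not overlap. A fit with a replicate block called 5 of the 63 genes, and 336 of all genes against 191 without it.

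The bulge stem cell precursors carried more of several ligands and receptors than the remaining sheath. Sema3e measured 37.0 and 34.6 FPKM in HF-SC against 1.22 and 1.62 in HF-ORS (log2 change 3.93 ± 0.35, adjusted p = 1.149e-06). Efnb2 measured 128 and 127 FPKM against 35.3 and 36.0 (1.81 ± 0.26, adjusted p = 0.0002029), the highest level of this ephrin in any population. Unc5b (18.1 and 13.6 FPKM against 1.84 and 1.72), Robo2 (15.5 and 16.2 against 3.96 and 4.37), Nrp2 (17.0 and 24.7 against 3.70 and 5.86) and Sema6a (12.8 and 19.8 against 3.62 and 3.11) were higher as well. Their log2 changes were 2.59 ± 0.56 (adjusted p = 0.008292), 1.71 ± 0.31 (adjusted p = 0.002121), 1.92 ± 0.32 (adjusted p = 0.0009244) and 1.96 ± 0.33 (adjusted p = 0.00113). None of these 6 genes had overlapping libraries, as for 38.4% of all genes.

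Of the 63 genes, 10 were called between HF-SC and HF-ORS, 9 higher and 1 lower, beside 4.4% of all genes (2.66% higher and 1.73% lower). Ephb1 (2.25 ± 0.38, adjusted p = 0.00106), Efna4 (1.61 ± 0.46, adjusted p = 0.04932) and Unc5d completed the higher ones, and Sema4d was lower (-1.24 ± 0.33, adjusted p = 0.03429). Suprabasal markers were lower in HF-SC, as given above, and Sema4d, with Sema3c, Sema3d and Sema3f, was high in both HF-ORS and Epi. The part of suprabasal cells in the called genes was not tested. The count fell to 6 without HF-ORS replicate 1 or HF-SC replicate 1, and a fit of this line's 4 libraries alone called 2 genes, Sema3e and Efnb2. Efna4, Sema4d and Unc5d were lost without HF-ORS replicate 1, HF-SC replicate 1 or HF-SC replicate 2 each, Unc5d also without HF-ORS replicate 2, and Unc5b without HF-ORS replicate 1 or HF-SC replicate 1.

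**Figure D5:**
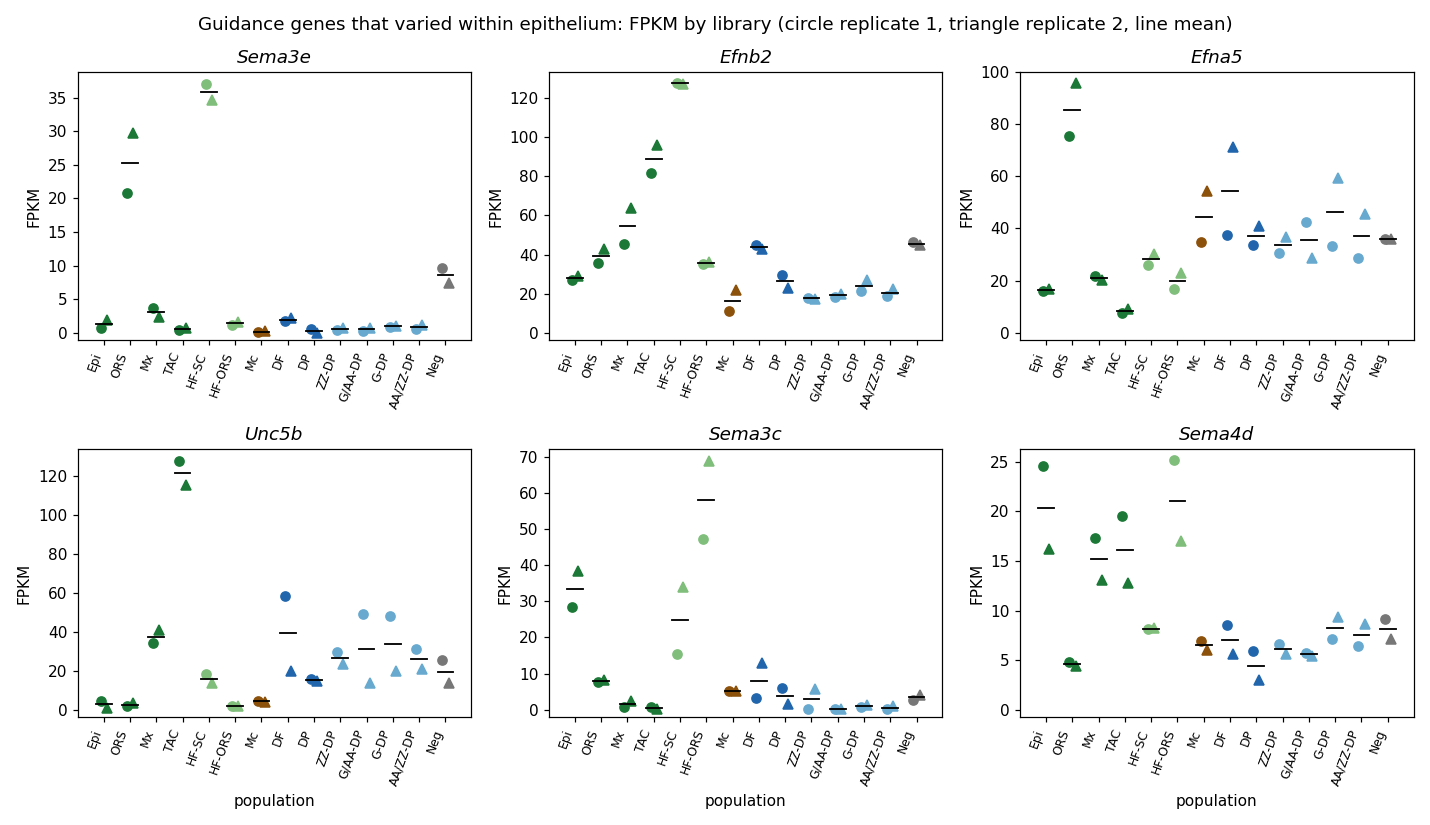
FPKM of Sema3e, Efnb2, Efna5, Unc5b, Sema3c and Sema4d in the 2 libraries of each population (circle, replicate 1; triangle, replicate 2; line, mean). Sema3e is high in HF-SC and ORS, Efna5 in ORS, Efnb2 in HF-SC and Unc5b in TAC, while Sema3c and Sema4d have their highest means in HF-ORS.

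Asked over the 8 populations of the K14-H2BGFP line together, 14 of the 63 genes were called higher in a single population than in each of the other 7, beside 8.26% of all genes. Mc held 6 of them (3.12% of all genes), DP 3 (Dcc, Unc5c and Efnb3, beside 1.81%), Epi 2 (Sema3d and Sema3f, beside 1.91%), and ORS, DF and Neg 1 each (beside 0.206%, 0.312% and 0.691%). Mx and TAC had none, beside 0.00664% and 0.193%. In DF the gene was Plxnb3 and in Neg Robo4, and each reached 1 FPKM only in the 2 libraries of that population, so that both entered the test through the group where they are high. Robo4 is a Robo family member of endothelial cells and measured 4.56 and 9.91 FPKM against 0.457 or less in the other populations of the line (at least 2.48 on the log2 scale). Summed endothelial markers in Neg were 119 and 184 FPKM, and 13.4 or less elsewhere. Of these 14, Dcc, Unc5c, Plxnc1, Sema6d and Sema6a were called under every setting tried. Robo4 was called under the 21 settings that tested it, which leave out neither Neg library. Sema3f was lost under 12 of 24 settings and Sema3d under 7, among them leaving out Epi replicate 2 or DF replicate 1. Without DF replicate 1 the count was 9, and with a pseudocount of 0.1 it was 8.

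The wider pathway was followed through 53 further genes, among them intracellular effectors and co-receptors, of which 51 were tested. Between mesenchyme and epithelium 19 of them were called (37.3%, beside 26% of all genes), 12 higher and 7 lower. The largest change was that of Draxin, a secreted antagonist that binds Dcc and netrin 1, at 121 and 60.2 FPKM in DP, 23.4 and 15.1 in DF and at most 1.43 in epithelium (5.03 ± 0.23, adjusted p = 9.825e-13). Ntng1 (4.40 ± 0.41, adjusted p = 3.043e-08) and Dpysl2, a collapsin response mediator protein (2.75 ± 0.16, adjusted p = 4.459e-11), were higher too. Draxin was also higher in DP than in DF (2.12 ± 0.37, adjusted p = 0.001029), where 8 of the 51 were called (15.7%, beside 6.69% of all genes), 3 higher and 5 lower. Between ORS and Epi 17 were called (33.3%, beside 9.83% of all genes), 13 higher and 4 lower, among them Flrt2, a ligand of Unc5 receptors, at 59.8 and 77.0 FPKM in ORS against 5.75 and 6.61 in Epi (3.26 ± 0.37, adjusted p = 2.597e-06). Between Mc and DF 17 were called, 3 higher and 14 lower (33.3%, beside 18.2% of all genes). Between HF-SC and HF-ORS 6 were called, all higher (11.8%, beside 4.4%), and between Mx and ORS 4, all lower (7.84%, beside 3.83%). Between TAC and Mx 1 was called (1.96%, beside 1.27%), Flrt2, which was lower in TAC. Between G-DP and AA/ZZ-DP 1 was called (1.96%, beside 0.505%), L1cam, at 11.6 and 10.3 FPKM in G-DP and 0.983 and 1.96 in AA/ZZ-DP, and its Mc libraries were at 11.2 and 46.9. None was called between G/AA-DP and ZZ-DP.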

How the data were processed

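Per the labels' protocols, only RNA with an integrity number of 8.8 or higher was used, and 6 ng was reverse transcribed and amplified before 100.0 ng of cDNA went into each library. The authors deposited 1 table of FPKM values with a column per library. Cufflinks 2.1.1, TopHat2 2.0.3, Bowtie2 and the mm10 build are named in the submitters' processing notes. The annotation, strand setting and any scaling between libraries are not given there. Amplification from little RNA widens the error of low genes. Upper quartiles lay between 10.306 and 11.075 FPKM, and no depth or counting interval can be given. Of 23235 rows, 220 identical ones were dropped. Another 64 share a symbol and 170 join several genes, none of them counted among the 69.

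Tests were run with limma 3.58.1 (R 4.3.3) on log2(FPKM + 1), a scale that understates the change of low genes, for the 15052 genes that reached 1 FPKM in 2 or more libraries. The fit used all 28 libraries with 1 mean per population and trended empirical Bayes (residual degrees of freedom 14, prior 5.7). Tests were two-sided with Benjamini-Hochberg adjustment over all genes tested, and the code was tested on simulated data. A call needs a log2 change of 1 or more in size and an adjusted p below 0.05. The labels gave each library's group and number. The genes, lists and comparisons were chosen with earlier results of these data known. Values are given for genes whose mean reached 10 FPKM in any population, and for Sema3a, Unc5d and Robo4, which are lower, as called genes. In each comparison up to 12 called genes with at least 5 FPKM on the higher side, taken by size of change, are given with a log2 change and adjusted p. An exception is Sema6d between TAC and Mx, given as the only call there at a mean of 3.15 FPKM in TAC. Uncalled changes were picked after their values were seen. Positions and promoter sequences are those of RefSeq on GRCm38.p6, where 59 of the 69 genes had a promoter. Alternatives were another pseudocount, filter, normalization, trend, the compared mouse line alone, a replicate block and leaving out each library, and 2 replacements of DF by DP were added after seeing the data.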

Additional observations from a re-analysis of the deposited data

How the results depend on the processing

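Of the 117 calls of guidance genes in the 9 comparisons, 49 were kept under every setting that tested them and 68 were lost under at least 1. No call was made in the opposite direction. The estimate of a lost call turned in sign in 2 cases, both with DP in place of DF against Mc: Epha2 at 0.0478 and Plxnb1 at 0.47 on the log2 scale. With a pseudocount of 5 the guidance calls were 17 for mesenchyme against epithelium and 22 for Mc against DF, and the calls over all genes 1907 and 1695, and 668 for DP against DF. With a pseudocount of 0.1 the guidance calls were 8 for DP against DF, 3 for TAC against Mx, 0 for G-DP against AA/ZZ-DP and 8 over the signatures of the 8 populations, and 28 genes in all were called for G-DP and 730 over the signatures. In fits of the compared mouse line alone the guidance calls were 2 for HF-SC against HF-ORS, 2 for TAC against Mx and 0 for G-DP, and all genes 108 for HF-SC, 22 for G-DP and 5 for G/AA-DP against ZZ-DP. Without a filter, 47 genes were called for G-DP and 4 for G/AA-DP. Without the trend 2 guidance genes were called for TAC against Mx, and after quantile normalization 121 of all genes. The cause of these shifts was not tested.

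Same-numbered libraries deviated together, with a positive correlation in every pair. The values were 0.057 to 0.275 over 28 pairs within the K14-H2BGFP line, 27 of them over 0.1. They were 0.285, 0.283 and 0.071 in the other lines, and 0.038 to 0.291 over 60 pairs between lines. The labels do not say what the numbers mark, so the main fit held no replicate term. Any effect shared by same-numbered libraries stays in its spread. With a replicate block, 1125 genes were called for HF-SC against HF-ORS (662 without it) and 336 for TAC against Mx (191 without it). The guidance calls for TAC against Mx were 5 (1 without it). The block ended none of the 117 calls.

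Leaving out 1 library at a time gave these ranges of guidance calls: 29 to 34 for mesenchyme against epithelium, 6 to 11 for DP against DF, 26 to 30 for Mc against DF, 8 to 9 for ORS against Epi, 6 to 10 for Mx against ORS, 0 to 1 for TAC against Mx, 6 to 9 for HF-SC against HF-ORS, 0 to 0 for G/AA-DP against ZZ-DP, 0 to 1 for G-DP against AA/ZZ-DP and 9 to 14 for the signatures. Over all genes the ranges were 3468 to 4340, 522 to 1003, 1981 to 2284, 942 to 1058, 192 to 409, 51 to 84, 312 to 751, 1 to 17, 13 to 274 and 983 to 1128 in the same order. The lone library left is then assumed to vary like the other populations.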
